A study of Mus musculus with 12 samples.

Results

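The genes described are 9 of the negative arm of the circadian clock and its kinases, measured by RNA-seq in mouse liver: Per1, Per2, Per3, Cry2, Ciart, Bhlhe40, Bhlhe41, Csnk1d and Csnk1e. They were chosen by name, with earlier results of these data known. All 9 of them were found among the 48537 genes of the table and passed the filter on low values. In the mammalian clock, the activators CLOCK and BMAL1 (encoded by Arntl) bind DNA elements called E-boxes and switch on genes whose products then shut the activators down. PERIOD and cryptochrome proteins form that repressor complex, casein kinases 1 delta and epsilon phosphorylate PERIOD proteins and set how long they last, and the proteins of Ciart, Bhlhe40 and Bhlhe41 restrain the same activators at E-boxes. The nuclear receptors REV-ERBalpha and REV-ERBbeta (Nr1d1 and Nr1d2) form a second loop that represses Arntl and other genes through ROR elements, and liver is a tissue in which both loops run strongly.

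Livers were taken at zeitgeber time 10 (10 h into the light phase), in 3 groups of 4. The re-expression livers carried the genotype label of REV-ERBalpha re-expression and DKO and REV-ERBalpha-WT in their titles. The livers labelled DKO had the genotype of a double knockout of the REV-ERBs and YFP in their titles. The control livers had the genotype wildtype and YFP in their titles. The deposited columns of the groups were named YFP_WT for re-expression, YFP_Cre for DKO and YFP for control, so effects of Cre recombinase cannot be told apart from the loss of the REV-ERBs. The titles of the re-expression livers name REV-ERBalpha-WT and no YFP, while their columns name YFP and no Cre. Effects of YFP or of Cre therefore cannot be told apart wherever re-expression livers are compared. The age of the animals, the alleles and the cells in which Cre acted are not stated in the labels. Each library is described as coming from its own biological replicate liver. Levels are in TPM, a measure of transcript abundance scaled per length of the gene and to the same total in each library, so levels of different genes can be compared.

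Libraries held 5621667 to 6906221 reads, as recovered from the deposited values. Nr1d1 averaged 191 ± 22.4 TPM in re-expression livers, 82.5 ± 7.39 TPM in livers labelled DKO and 68.7 ± 5.53 TPM in control livers (SD, n = 4 each). Nr1d2 averaged 97.7 ± 15.1 TPM in re-expression livers, 90.4 ± 7.91 TPM in livers labelled DKO and 96.6 ± 14.9 TPM in control livers. Neither target passed the test in livers labelled DKO against control livers (limma log2 differences of 0.26 ± 0.10 for Nr1d1 and -0.085 ± 0.13 for Nr1d2), and since a sum over a whole gene can keep reads outside a deleted part, it does not check the label. Arntl, a target that REV-ERBs repress, stood at 19.8 ± 1.27 TPM in livers labelled DKO and 0.728 ± 0.205 TPM in control livers. Hepatocyte markers summed to 51452 to 53770 TPM in re-expression livers, 49724 to 53042 TPM in livers labelled DKO and 48059 to 51901 TPM in control livers. On the second principal component, which held 12.5% of the variance, control replicates 3 and 4 (scores of 43.8 and 48.7) stood apart from control replicates 1 and 2 (-26.9 and -6.36). In RNA from whole liver, fewer cells of a type and less RNA per cell cannot be told apart.

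The promoters that hold E-boxes or D-boxes are shown because the genes are grouped by their control through these elements. D-boxes are bound by the activators DBP, TEF and HLF and by the repressor NFIL3. A RefSeq table of promoters (build GRCm38.p6, 250 bases before to 50 after each start) held 10 promoters of 6 of the 9 genes, and Per2, Bhlhe40 and Csnk1d had no entry. The motifs searched on both strands were the E-box CACGTG, the E-prime box CACGTT, the D-boxes TTATGTAA and TTACGTAA, the ROR elements TAGGTCA and TGGGTCA and the cAMP response element TGACGTCA. No matches overlapped in these promoters. Sequences run 5′ to 3′ on the strand of the gene, with the matches in capitals. They are Per3 at chr4:151044666-151044915 (minus strand), Ciart at chr3:95882252-95882478 (minus), Per1 at chr11:69098756-69098815 (plus), Bhlhe41 at chr6:145865559-145865600 (minus) and Cry2 at chr2:92434203-92434262 (minus).
Per3: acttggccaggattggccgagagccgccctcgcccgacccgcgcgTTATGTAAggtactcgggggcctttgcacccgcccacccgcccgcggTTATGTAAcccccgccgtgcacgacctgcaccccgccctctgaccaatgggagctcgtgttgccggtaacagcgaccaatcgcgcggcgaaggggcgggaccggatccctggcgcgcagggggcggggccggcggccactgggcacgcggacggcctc
Ciart: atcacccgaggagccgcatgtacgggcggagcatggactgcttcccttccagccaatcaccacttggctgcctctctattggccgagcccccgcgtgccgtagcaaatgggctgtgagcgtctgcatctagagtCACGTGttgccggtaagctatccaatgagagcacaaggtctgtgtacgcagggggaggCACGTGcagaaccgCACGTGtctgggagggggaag
Per1: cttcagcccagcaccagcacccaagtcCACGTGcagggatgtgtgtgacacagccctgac
Bhlhe41: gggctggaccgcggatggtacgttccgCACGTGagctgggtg
Cry2: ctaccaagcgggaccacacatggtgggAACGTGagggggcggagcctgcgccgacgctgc
The Per3 window held 2 D-boxes, whose first bases lie 205 and 158 bases before the start. At least 1 D-box was found in 1.06% of the 32851 promoters of the table, and 2 or more in 0.0244%, which is 8 promoters. Ciart held 3 E-boxes, at 116, 58 and 44 bases before its start, where 7.15% of promoters held at least 1 and 0.594% held 2 or more. The upstream start of Per1 had 1 E-box at 166 bases, and Bhlhe41 had 1 at 153 bases. Cry2 had an E-prime box at 166 bases, read here as AACGTG on the strand of the gene, and 4.68% of promoters held that motif. None of the 10 promoters held a ROR element or the cAMP response element, found in 6.45% and 1.79% of promoters. The other start of Per1 and the promoters of Csnk1e held none of the letters searched. A match describes these letters only and is not evidence that a factor binds.

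**Figure D1:**
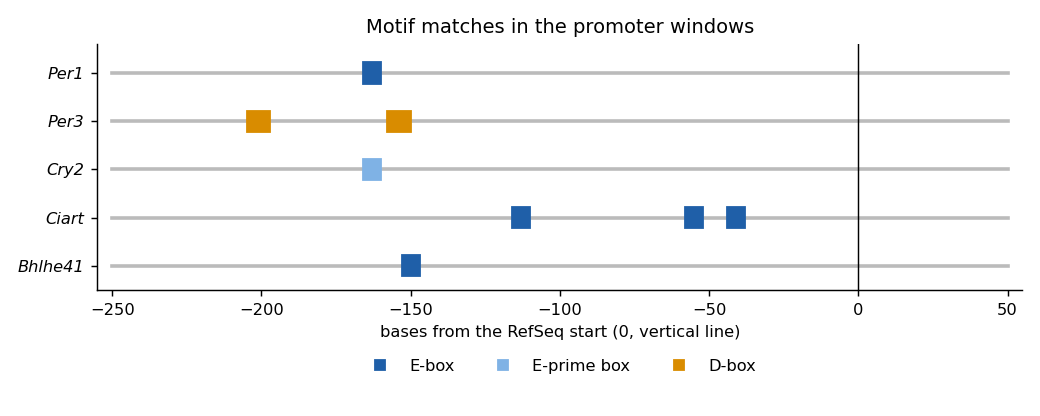
Positions of motif matches in the promoter windows of Per1, Per3, Cry2, Ciart and Bhlhe41, in bases from the RefSeq start (vertical line at 0). Boxes span each match, coloured by motif. Per3 is the gene with 2 D-boxes, at 205 and 158 bases before the start, and Ciart has 3 E-boxes within 116 bases of its start.

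Bhlhe40 was the most abundant of the 9 RNAs in each group, and its range was apart from that of Csnk1d, which came next. Bhlhe40 averaged 68.4 ± 4.37 TPM in re-expression livers, 60.2 ± 3.21 TPM in livers labelled DKO and 147 ± 51.3 TPM in control livers. The other repressors and Csnk1d lay in a band, from 23.6 to 40.6 TPM on average in re-expression livers, 18.9 to 39.2 TPM in livers labelled DKO and 29.3 to 36.2 TPM in control livers. Most neighbours within the band overlapped. Per3 was the lowest of the band in re-expression livers and in livers labelled DKO, with its range below that of its upper neighbour (Cry2 and Per1), and in control livers it was at place 4 of the 9 and overlapped both neighbours. Bhlhe41 and Csnk1e were the rarest in every group, at 2.31 and 3.68 TPM in re-expression livers, 2.34 and 3.69 TPM in livers labelled DKO and 3.56 and 3.30 TPM in control livers.

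**Figure D2:**
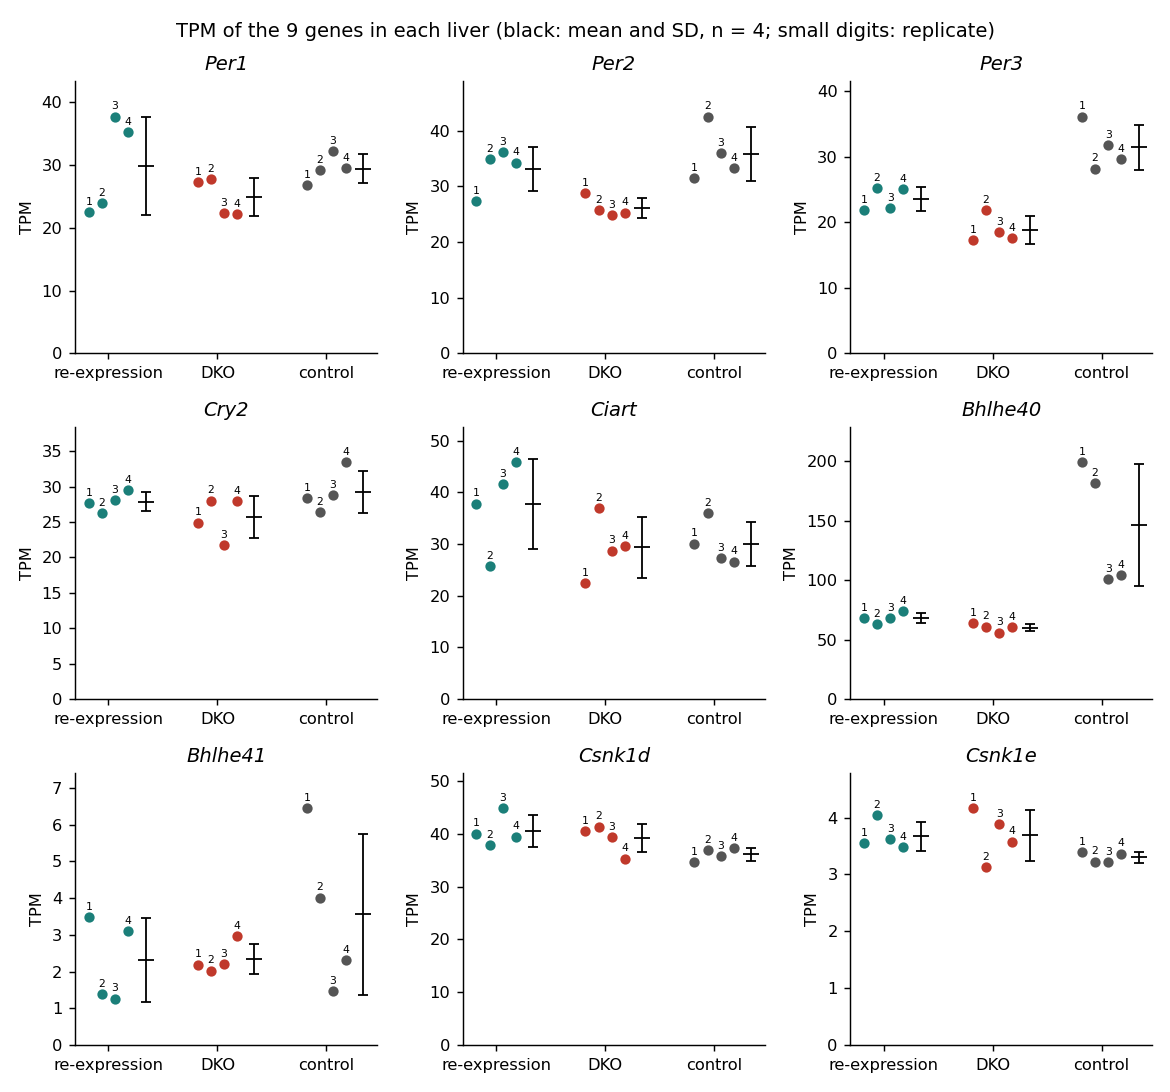
TPM of each of the 9 genes in each liver (points, with the replicate number), with the mean and SD of the 4 livers of a group in black. Bhlhe40 and Per3 are lower in every re-expression liver and every liver labelled DKO than in every control liver, and Per2 is lower in every liver labelled DKO than in every control liver.

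The livers labelled DKO were set against the control livers to ask what loss of the REV-ERBs does to this arm. Bhlhe40, Per3 and Per2 fell, and the other 6 genes did not pass the test. That is 3 of 9 genes called lower and 0 called higher, where limma with Benjamini-Hochberg adjustment at a threshold of 0.05 called 5.33% of the 17957 genes tested, 2.34% lower and 2.99% higher. The same 3 genes were the ones whose groups did not overlap, a pattern that 11.5% of the tested genes showed, 5.4% with the livers labelled DKO lower and 6.13% with them higher. The median log2 difference of the 9 genes was -0.24, beside 0.0011 over all tested genes. Gene positions below are from the GENCODE M21 annotation on mm10. Differences are on the log2(TPM + 1) scale, where changes of rare RNAs come out smaller than they are.

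Per1, Per2 and Per3 encode the PERIOD proteins, which scaffold the repressor complex. Per1 is also induced quickly by light, glucocorticoids and cAMP in many tissues. It lies at chr11:69095217-69109960 on the plus strand. Per1 stood at 27.4, 27.8, 22.4 and 22.2 TPM in livers labelled DKO and at 26.8, 29.2, 32.3 and 29.6 TPM in control livers. DKO replicates 1 and 2 lay within the control range and replicates 3 and 4 below it. The log2 difference was -0.24 ± 0.16 (SE), with a 95% interval of -0.59 to 0.11 and a limma adjusted p of 0.488.

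Per2 (chr1:91415982-91459324, minus strand) is a gene whose loss disrupts the behavioural rhythms of mice in constant darkness. It stood at 28.7, 25.7, 24.8 and 25.3 TPM in livers labelled DKO and at 31.4, 42.5, 36.0 and 33.2 TPM in control livers. All 4 livers labelled DKO were below the lowest control liver, and control replicate 2 was the highest. Per2 fell by 0.43 ± 0.11 on the log2 scale (limma adjusted p = 0.0456), so the mean in livers labelled DKO was 0.730 of that in control livers. The call was close to the threshold and held under 5 of 21 alternatives, with adjusted p from 0.0278 to 0.115. It was lost when any 1 of DKO replicates 1 to 4, control replicates 2 to 4 or re-expression replicates 2 to 4 was left out, and with replicate number as a block (adjusted p = 0.0749). In the authors' deposited table, in the comparison that follows these groups, the log2 fold change of Per2 was -0.45 with an adjusted p of 0.143.

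Per3 (chr4:151003652-151044665, minus strand), whose loss leaves mouse behavioural rhythms largely intact, stood at 17.3, 21.9, 18.6 and 17.6 TPM in livers labelled DKO and at 36.2, 28.2, 31.8 and 29.7 TPM in control livers. No liver labelled DKO reached the lowest control liver. Per3 fell by 0.71 ± 0.10 on the log2 scale (limma adjusted p = 0.00207), to 0.600 of the control mean. The call held under all 21 alternatives, with adjusted p from 0.000421 to 0.0147. The authors' deposited table gave a log2 fold change of -0.74 and an adjusted p of 8.2e-06. Per3, whose promoter window holds the pair of D-boxes, overlaps Camta1 on the same strand, and Camta1 stood at 1.07 TPM in livers labelled DKO and 1.11 TPM in control livers.

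Cry2 (chr2:92403646-92434043, minus strand) encodes a cryptochrome, the partner of PERIOD proteins that blocks CLOCK and BMAL1. It stood at 24.9, 28.0, 21.8 and 27.9 TPM in livers labelled DKO and at 28.4, 26.4, 28.8 and 33.4 TPM in control livers. The groups overlapped, and DKO replicate 3 was the lowest liver. The log2 difference of -0.19 ± 0.098 had a 95% interval of -0.40 to 0.029 (limma adjusted p = 0.355). Cry2 overlaps the gene D930015M05Rik on the other strand, which stood at 4.78 TPM in livers labelled DKO and 6.20 TPM in control livers. Ciart, Bhlhe40, Bhlhe41, Csnk1d and Csnk1e also overlap genes on the other strand. Gm28192, over Csnk1d, stood at 8.25 TPM in livers labelled DKO and 6.96 TPM in control livers, and the others at 2.53 TPM or less in every liver. Whether reads were counted by strand is not stated in the labels.

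Ciart (chr3:95878503-95882251, minus strand), also called Chrono, encodes a repressor that binds BMAL1. It stood at 22.5, 36.9, 28.7 and 29.6 TPM in livers labelled DKO and at 30.1, 36.0, 27.3 and 26.6 TPM in control livers. DKO replicate 1 was the lowest and DKO replicate 2 the highest of these 8 livers, so the control range lay inside that of the livers labelled DKO. Ciart thus differed by -0.037 ± 0.19 on the log2 scale, with a 95% interval of -0.44 to 0.37 (limma adjusted p = 0.945).

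Bhlhe40 and Bhlhe41 encode DEC1 and DEC2, basic helix-loop-helix repressors that bind E-boxes themselves. Bhlhe40 (chr6:108660629-108666925, plus strand) stood at 63.6, 60.9, 55.9 and 60.3 TPM in livers labelled DKO and at 199, 182, 101 and 104 TPM in control livers. The livers labelled DKO lay close together and below every control liver. The control livers fell into pairs, replicates 1 and 2 high and replicates 3 and 4 lower, which are the pairs that stood apart on the second principal component. Bhlhe40 fell by 1.20 ± 0.20 on the log2 scale (limma adjusted p = 0.00438), to 0.411 of the control mean, and the call held under all 21 alternatives. Without control replicates 1 and 2 it fell by 0.76 (adjusted p = 0.00135), and without control replicates 3 and 4 by 1.65 (adjusted p = 1.28e-05). The authors' deposited table gave a log2 fold change of -1.26 and an adjusted p of 3.18e-14.

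Bhlhe41 (chr6:145858243-145865558, minus strand) stood at 2.19, 2.02, 2.20 and 2.96 TPM in livers labelled DKO and at 6.45, 4.01, 1.47 and 2.32 TPM in control livers. The control livers spread from below to above every liver labelled DKO. Bhlhe41 differed by -0.33 ± 0.34 on the log2 scale, with a 95% interval of -1.07 to 0.41 (limma adjusted p = 0.675). Bhlhe41 rested on 31 to 43 reads per liver labelled DKO and 21 to 101 reads per control liver, and counting alone would give a coefficient of variation of 16.7% and 13.5% in these groups. The observed coefficient was 17.8% in livers labelled DKO and 61.7% in control livers.

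The kinases did not pass the test. Csnk1d (chr11:120961749-120991330, minus strand), which encodes casein kinase 1 delta, stood at 40.6, 41.4, 39.4 and 35.3 TPM in livers labelled DKO and at 34.6, 36.9, 35.8 and 37.3 TPM in control livers. DKO replicates 1 to 3 were above every control liver, and DKO replicate 4 was below all but 1 of them. The log2 difference of 0.11 ± 0.074 had a 95% interval of -0.052 to 0.27 (limma adjusted p = 0.484).

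Csnk1e (chr15:79417856-79455566, minus strand), which encodes casein kinase 1 epsilon, stood at 4.17, 3.13, 3.89 and 3.58 TPM in livers labelled DKO and at 3.39, 3.23, 3.22 and 3.36 TPM in control livers. DKO replicate 2 was the lowest of the 8 livers and the others labelled DKO were above all control livers. Csnk1e differed by 0.12 ± 0.12 on the log2 scale, with a 95% interval of -0.13 to 0.37 (limma adjusted p = 0.650). Csnk1e had 47 to 69 reads per liver labelled DKO and 45 to 52 per control liver, and its spread between control livers, 2.75%, was under the 14.3% that counting alone would give. Csnk1d was far more abundant than Csnk1e, which made up 8.63% of their summed TPM in livers labelled DKO and 8.37% in control livers.

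**Figure D3:**
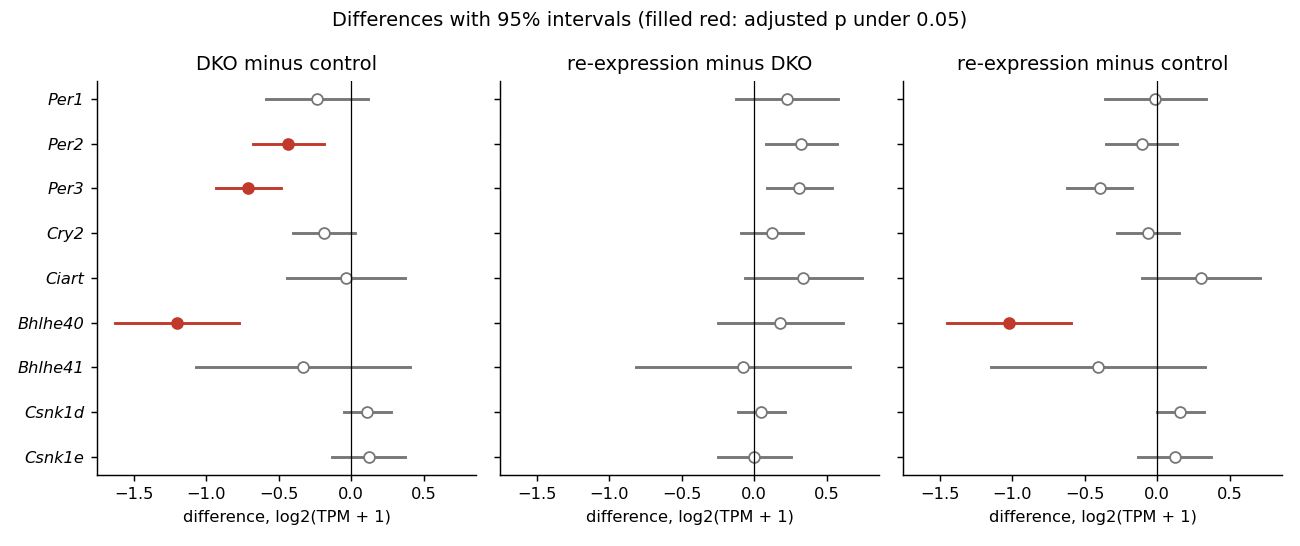
Log2 differences of the 9 genes on the log2(TPM + 1) scale with 95% intervals from limma, in 3 panels: DKO minus control, re-expression minus DKO and re-expression minus control. Filled red points have an adjusted p under 0.05: Bhlhe40, Per3 and Per2 in the first panel, no gene in the second and Bhlhe40 in the third.

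Some markers of hepatocytes and of other liver cells differed in this comparison. Of 8 hepatocyte markers, 2 were called higher, Cps1 and Ttr (limma adjusted p = 0.0156 and 0.0250), and 0 lower. At an unadjusted limma p under 0.05, 4 of 8 were higher and 1 was lower, Alb, with a log2 difference of -0.21. The hepatocyte sums of these groups overlapped. Among all tested genes limma called 2.99% higher and 2.34% lower. Before adjustment, 1723 of 17957 rose and 1573 fell with a limma p under 0.05. Stellate cell markers summed to 393 to 432 TPM in livers labelled DKO and 232 to 364 TPM in control livers, with 4 of 8 called higher. Sinusoidal endothelium markers summed to 256 to 319 TPM in livers labelled DKO and 211 to 242 TPM in control livers, with 0 of 8 called and 6 of 8 higher at an unadjusted p under 0.05. Red blood cell genes summed to 400 to 686 TPM in livers labelled DKO and 276 to 382 TPM in control livers, with 0 of 5 called and 5 of 5 higher at an unadjusted p under 0.05. Kupffer cell markers summed to 471 to 533 TPM in livers labelled DKO and 450 to 1019 TPM in control livers, with 0 of 8 called. Cholangiocyte markers summed to 76.7 to 86.1 TPM in livers labelled DKO and 74.5 to 105 TPM in control livers, with 1 of the 4 tested called higher. T and B cell markers summed to at most 7.33 TPM in any liver. No marker list but those of cholangiocytes and of T and B cells had a gene with a mean under 1 TPM. The part of these cells in the changes of Bhlhe40, Per3 and Per2 was not tested.

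Re-expression livers were set against livers labelled DKO to ask what return of REV-ERBalpha does to the same genes. None of the 9 genes was called, where limma called 13 of 17957 genes, 0.0724%, of which 0.0278% of genes were higher and 0.0446% lower. Per2 and Per3, both higher, were the 2 of the 9 with a p under 0.05 before adjustment, which 6.19% of all tested genes had. The groups overlapped for all 9 genes, while 4.25% of tested genes did not, 2.09% with the re-expression livers higher and 2.16% with them lower. The median log2 difference of the 9 was 0.18, beside 0.013 over all tested genes. This comparison shares the livers labelled DKO with the first, so the values of one are not independent of the other.

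Per1 stood at 22.6, 23.9, 37.7 and 35.3 TPM in re-expression livers, with the values in livers labelled DKO between 22.2 and 27.8 TPM. Re-expression replicates 1 and 2 lay within that range and replicates 3 and 4 were the highest of the 12 livers. The log2 difference was 0.22 ± 0.16 (limma adjusted p = 1), with a 95% interval of -0.13 to 0.58.

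Per2 stood at 27.3, 34.9, 36.1 and 34.3 TPM in re-expression livers, against 24.8 to 28.7 TPM in livers labelled DKO. Re-expression replicate 1 lay inside the range of the livers labelled DKO, and the other 3 lay above it. Per2 differed by 0.33 ± 0.11 on the log2 scale, with a 95% interval of 0.082 to 0.57 before adjustment and a limma adjusted p of 0.572.

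Per3 stood at 21.9, 25.3, 22.1 and 25.1 TPM in re-expression livers, against 17.3 to 21.9 TPM in livers labelled DKO. Re-expression replicate 1 was just below DKO replicate 2, the highest of its group, and the other 3 lay above the group. The log2 difference was 0.31 ± 0.10, with a 95% interval of 0.088 to 0.53 and a limma adjusted p of 0.531. The 3 Period RNAs together averaged 86.6 ± 11.3 TPM in re-expression livers, 69.9 ± 5.26 TPM in livers labelled DKO and 96.7 ± 3.89 TPM in control livers.

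Cry2 stood at 27.7, 26.2, 28.1 and 29.5 TPM in re-expression livers, against 21.8 to 28.0 TPM in livers labelled DKO. Its log2 difference was 0.12 ± 0.098, with a 95% interval of -0.092 to 0.34. Ciart stood at 37.8, 25.7, 41.6 and 45.8 TPM in re-expression livers, against 22.5 to 36.9 TPM in livers labelled DKO. Re-expression replicates 1, 3 and 4 were above every liver labelled DKO and replicate 2 lay inside their range. The log2 difference of Ciart was 0.34 ± 0.19, with a 95% interval of -0.067 to 0.74 (limma adjusted p = 0.918).

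Bhlhe40 stood at 68.4, 63.1, 68.1 and 73.8 TPM in re-expression livers, against 55.9 to 63.6 TPM in livers labelled DKO. Re-expression replicate 2 lay just inside the range of the livers labelled DKO and the others lay above it. The log2 difference was 0.18 ± 0.20 (limma adjusted p = 1), with a 95% interval of -0.25 to 0.61. Bhlhe41 stood at 3.48, 1.39, 1.26 and 3.11 TPM in re-expression livers, with 2 livers above and 2 below the whole group labelled DKO. Its log2 difference was -0.075 ± 0.34, with a 95% interval of -0.81 to 0.66.

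Csnk1d stood at 40.0, 37.9, 44.9 and 39.5 TPM in re-expression livers, against 35.3 to 41.4 TPM in livers labelled DKO. Csnk1e stood at 3.55, 4.05, 3.62 and 3.48 TPM in re-expression livers, against 3.13 to 4.17 TPM in livers labelled DKO. Neither kinase set these groups apart. The 95% intervals of the log2 differences were -0.11 to 0.21 for Csnk1d and -0.25 to 0.25 for Csnk1e. Sinusoidal endothelium markers summed to 168 to 255 TPM in re-expression livers and 256 to 319 TPM in livers labelled DKO, with 0 of 8 called. At an unadjusted limma p under 0.05, 4 of 8 were lower, beside 600 of 17957 tested genes. The sums of the other marker lists overlapped between these groups. The part of these cells in the values of the 9 genes was not tested.

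The third comparison set re-expression livers against control livers, and asks how far re-expression livers stood from controls. Bhlhe40 was the 1 gene of the 9 called, and it was lower, where limma called 1.82% of tested genes, 0.663% lower and 1.16% higher. Bhlhe40 fell by 1.02 ± 0.20 on the log2 scale (limma adjusted p = 0.0219), with 63.1 to 73.8 TPM in re-expression livers and 101 to 199 TPM in control livers. The call held under 15 of 21 alternatives and was lost without any 1 of the 4 re-expression livers (adjusted p from 0.0540 to 0.0685), without control replicate 2 (adjusted p = 0.0559), and when the 8 libraries were fitted alone (adjusted p = 0.102). Without control replicates 1 and 2 it fell by 0.58, and without control replicates 3 and 4 by 1.47.

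Per3 lay at 21.9 to 25.3 TPM in re-expression livers and 28.2 to 36.2 TPM in control livers, with no overlap. Its log2 difference of -0.40 ± 0.10 did not pass (limma adjusted p = 0.0820), and over the alternatives the adjusted p ran from 0.0364 to 0.198, under the threshold only with voom on recovered reads. Per2 overlapped, at 27.3 to 36.1 TPM in re-expression livers and 31.4 to 42.5 TPM in control livers, and had a log2 difference of -0.11 ± 0.11 with a 95% interval of -0.35 to 0.14. Per1 differed by -0.012 ± 0.16 with a 95% interval of -0.36 to 0.34, and its re-expression livers lay on both sides of the control range.

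Cry2 had a log2 difference of -0.063 ± 0.098 and Ciart one of 0.30 ± 0.19 (95% interval -0.10 to 0.71), and both overlapped. Bhlhe41 differed by -0.41 ± 0.34, with a 95% interval of -1.14 to 0.33. The kinases were the 2 genes of the 9 that stood higher in every re-expression liver than in every control liver, beside 4.29% of tested genes with that pattern, and neither was called. Groups that did not overlap in either direction were found for 4 of the 9 genes and 7.28% of tested genes, and the 2 lower ones were Bhlhe40 and Per3. Csnk1d lay at 37.9 to 44.9 TPM in re-expression livers and 34.6 to 37.3 TPM in control livers, a log2 difference of 0.16 ± 0.074 (limma adjusted p = 0.414). Csnk1e lay at 3.48 to 4.05 TPM in re-expression livers and 3.22 to 3.39 TPM in control livers, a log2 difference of 0.12 ± 0.12 (limma adjusted p = 0.770). The median log2 difference of the 9 genes was -0.063, beside 0.011 over all tested genes. Stellate cell markers summed to 327 to 407 TPM in re-expression livers and 232 to 364 TPM in control livers, with 1 of 8 called higher. Red blood cell genes summed to 372 to 835 TPM in re-expression livers and 276 to 382 TPM in control livers, with 0 of 5 called. At an unadjusted limma p under 0.05, 3 of 8 stellate and 4 of 5 red blood cell genes were higher, beside 1229 of 17957 tested genes. The part of these cells in the lower Bhlhe40 was not tested.

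**Figure D4:**
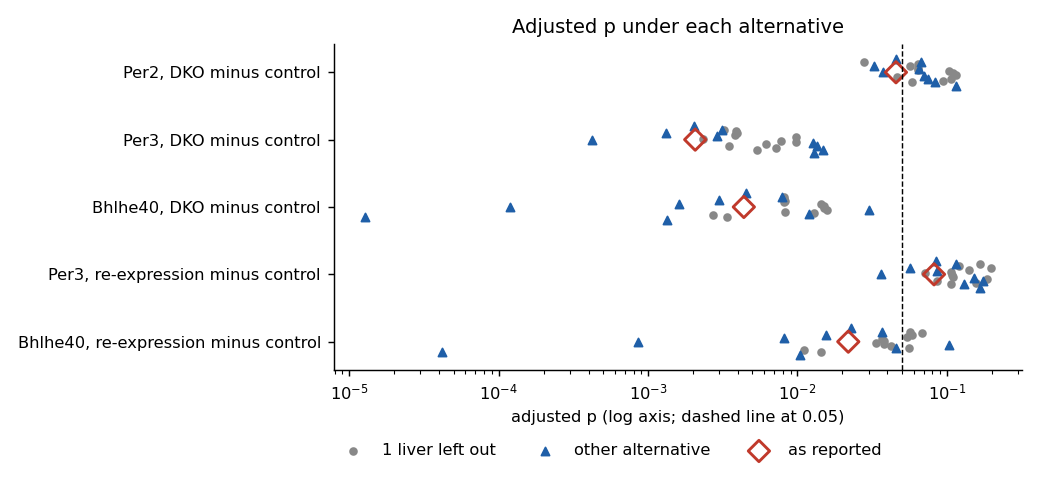
Adjusted p from limma for 5 gene and comparison pairs (rows) on a log axis, as reported (red diamonds), with 1 liver left out (grey circles) and under other alternatives (blue triangles). The dashed line marks 0.05. Per3 and Bhlhe40 in DKO minus control stay left of the line throughout, Per2 falls on both sides of it, and Bhlhe40 in re-expression minus control crosses it in 6 of 21 alternatives.

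Related genes were compared within each liver as log2 ratios of TPM, 6 ratios in 3 comparisons. With 4 livers against 4 the smallest p that an exact two-sided permutation test can give is 0.0286, and after Benjamini-Hochberg adjustment over the 18 tests the smallest was 0.103, so none passed. A ratio at that smallest p can pass only if many of the 18 reach it too. Not passing therefore says little about the size of a difference. The log2 ratio of Cry2 to Cry1, its close relative and a gene with a ROR element, was -0.24, -0.22, -0.26 and -0.069 in re-expression livers, -1.37, -0.97, -0.97 and -0.92 in livers labelled DKO and 1.63, 1.62, 2.02 and 1.61 in control livers. No groups overlapped, so Cry2 RNA exceeded Cry1 RNA in every control liver and was below it in every other liver. The mean ratio differed by -2.78 between livers labelled DKO and control livers, by 0.86 between re-expression livers and livers labelled DKO and by -1.92 between re-expression livers and control livers, each with an exact permutation p of 0.0286 (adjusted 0.103). Cry1 lay at 30.6 to 33.7 TPM in re-expression livers, 42.6 to 64.5 TPM in livers labelled DKO and 7.13 to 10.9 TPM in control livers, a far wider spread than that of Cry2.

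The log2 ratio of Per3 to Per1 was -0.66, -0.34, -0.27 and -0.33 in livers labelled DKO and 0.43, -0.048, -0.024 and 0.0048 in control livers. These groups did not overlap, and the mean ratio differed by -0.49 (exact permutation p = 0.0286, adjusted 0.103). The log2 ratio of Bhlhe40 to Bhlhe41 was 4.86, 4.91, 4.66 and 4.35 in livers labelled DKO and 4.95, 5.50, 6.10 and 5.49 in control livers, a mean difference of -0.81 with the same p values. The other 13 ratio comparisons, among them those of Csnk1d to Csnk1e and Per1 to Per2, had unadjusted exact permutation p from 0.114 to 0.914.

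**Figure D5:**
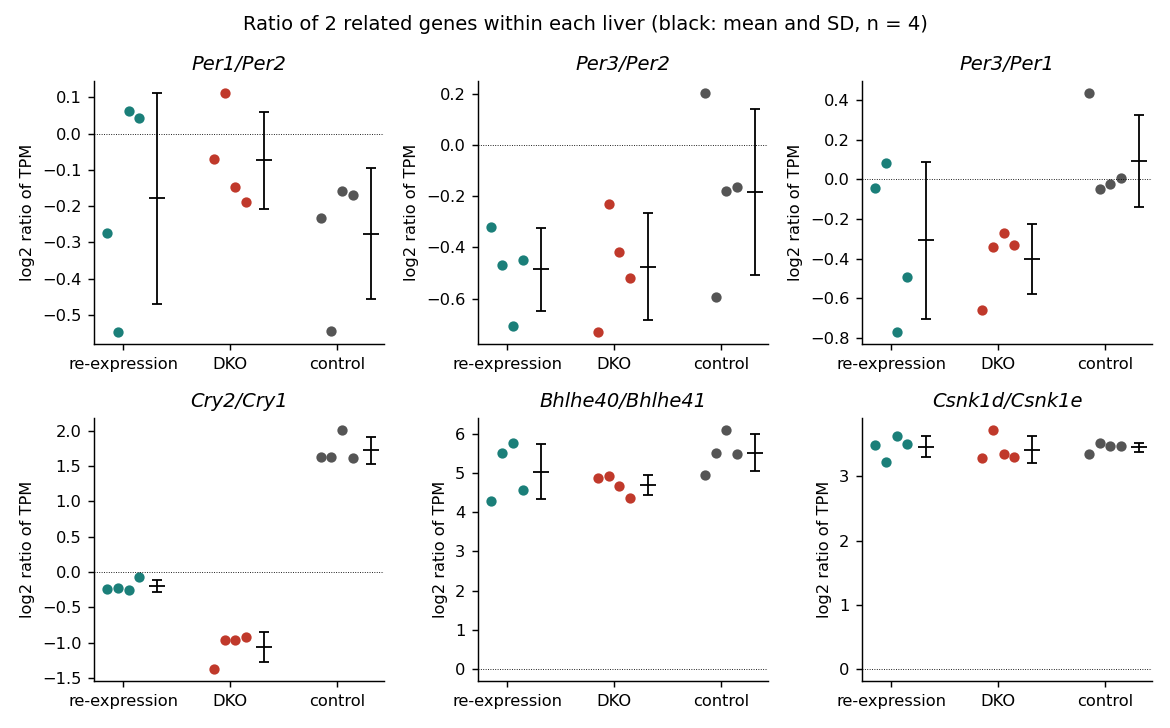
Log2 ratio of TPM of 2 related genes within each liver (points), with the mean and SD of the 4 livers of a group in black. Cry2/Cry1 lies near -0.20 in re-expression livers, -1.06 in livers labelled DKO and 1.72 in control livers, and the 3 groups do not overlap there.

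Other genes of the clock were read in the same fits. Among the 6 activators tested, 3 rose between livers labelled DKO and control livers, beside 2.99% of all tested genes called higher. Arntl rose by 3.60 ± 0.11 and Clock, which encodes the partner of BMAL1, by 1.08 ± 0.13 on the log2 scale (limma adjusted p = 1.37e-08 and 0.000811). Npas2, a relative of Clock, rose by 3.70 ± 0.17. It averaged 2.48 TPM in re-expression livers, 13.0 TPM in livers labelled DKO and 0.0713 TPM in control livers. With 0 to 2 reads per control liver, its differences from control livers come out smaller on this scale than they are. In re-expression livers against livers labelled DKO, Npas2 fell by 2.01 ± 0.17 (limma adjusted p = 0.00063), where 0.0446% of all tested genes were called lower. In re-expression livers against control livers Arntl, Clock and Npas2 rose by 3.22, 1.01 and 1.69, where 1.16% of all tested genes were called higher.

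Of 10 other clock genes, listed by name as E-box or D-box genes, 2 rose and 4 fell between livers labelled DKO and control livers. Among all tested genes 2.99% and 2.34% did. Motif matches in the promoters of these 10 are not given here. The repressor of D-boxes Nfil3 rose by 2.22 ± 0.09 and Cry1 by 2.46 ± 0.13. Wee1, a cell cycle kinase under clock control, fell by 1.58 ± 0.16, with 9.13 ± 0.599 TPM in livers labelled DKO and 29.7 ± 5.47 TPM in control livers. The other 3 that fell, named after their values were seen, were Nampt by 1.16, Usp2 by 0.84 and the D-box activator Tef by 0.35. Nr1d1 was the 1 gene of this list called in re-expression livers against livers labelled DKO, beside 0.0724% of all tested genes. It encodes REV-ERBalpha, which was re-expressed in these livers, so its rise by 1.20 ± 0.10 cannot be read as a response of this list. In re-expression livers against control livers 3 rose, Nr1d1 among them, and 1, Wee1, fell, beside 1.16% and 0.663% of all tested genes.

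Of 19 enzymes that modify or degrade PERIOD and cryptochrome proteins, 1 was called in livers labelled DKO against control livers, a share near the 5.33% of all tested genes: Ppp1ca, a catalytic subunit of protein phosphatase 1, which acts on PERIOD proteins, rose by 0.36 ± 0.05 (limma adjusted p = 0.00207). It averaged 110 ± 1.65 TPM in re-expression livers, 118 ± 5.33 TPM in livers labelled DKO and 91.5 ± 2.13 TPM in control livers. Ppp1ca was also the 1 of the 19 called in re-expression livers against control livers. It was higher by 0.27, where 1.16% of all tested genes were called higher. Its relative Ppp1cc had a log2 difference of -0.32 ± 0.10 in the first comparison and did not pass (limma adjusted p = 0.108). None of the 19 was called between re-expression livers and livers labelled DKO, where 0.0724% of all tested genes were. Of 14 proteins found in PERIOD complexes, none was called in any comparison, where 5.33% of all tested genes were in DKO minus control, 0.0724% in re-expression minus DKO and 1.82% in re-expression minus control. With a p under 0.05 before adjustment there were 2, 0 and 2 of them in the same 3 comparisons, beside 18.4%, 6.19% and 12.5% of all tested genes. Chd4 and Mta2 had the smallest p, with log2 differences of 0.18 ± 0.06 and 0.27 ± 0.09 between livers labelled DKO and control livers.

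Signals that induce Per1 and Per2 directly, such as glucocorticoids, cAMP and heat, were read from 15 tested genes of these routes, of which 2 were called higher and 1 lower in the first comparison, beside 2.99% and 2.34% of all tested genes. Between livers labelled DKO and control livers the glucocorticoid targets Tsc22d3 and Sgk1 rose by 1.29 ± 0.16 and 1.14 ± 0.28. The immediate early gene Fos fell by 1.34 ± 0.31, on only 1 to 9 reads per liver labelled DKO and 16 to 31 per control liver. Fkbp5, another glucocorticoid target of the list, named after its values were seen, had a log2 difference of -0.18 and did not pass (limma adjusted p = 0.769). Tsc22d3 averaged 112 ± 14.8 TPM in re-expression livers, 120 ± 23.6 TPM in livers labelled DKO and 48.2 ± 7.09 TPM in control livers. Per1, itself a glucocorticoid target, was not called in that comparison. None of the 15 was called between re-expression livers and livers labelled DKO, where 0.0724% of all tested genes were. Tsc22d3 was the 1 called between re-expression livers and control livers, and it was higher, beside 1.16% of all tested genes called higher.

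The genes most like each of the 9 over the 12 livers were ranked by Pearson correlation of log2(TPM + 1) among 9170 genes, as a description. The 12 livers share the differences between groups and each liver its library, so high values are easily reached. Bhlhe40 was most like Lrrc28 (0.98), Mlkl (0.97) and Ttc23 (0.96). Ttc23 averaged 14.3 TPM in re-expression livers, 13.9 TPM in livers labelled DKO and 32.6 TPM in control livers. Per3 was most like Esr1 (0.93), Cd1d1 (0.93) and Gpr155 (0.92). Esr1, which encodes an estrogen receptor, averaged 5.99 TPM in re-expression livers, 4.05 TPM in livers labelled DKO and 13.5 TPM in control livers. Per2 was most like Fads2 (0.92), Fads6 (0.90) and Msmo1 (0.90). Fads2 encodes a fatty acid desaturase and averaged 325 TPM in re-expression livers, 252 TPM in livers labelled DKO and 385 TPM in control livers. The nearest genes were Tmem120a for Per1 (0.88), Map3k21 for Cry2 (0.89), Msrb2 for Ciart (0.87), Utp14a for Bhlhe41 (0.95), Tubb6 for Csnk1d (0.90) and Tuba1b for Csnk1e (0.86).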

How the data were processed

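Total RNA from frozen liver went into strand-specific total RNA libraries, per the labels' protocols. Build mm10 and featureCounts 2.0.1, STAR 2.7.1a, bcl2fastq 2.17, DESeq2 1.36.0 and SAMtools 1.9 are named, per the submitters' processing notes. The sources used here do not state whether counting used strand. The authors deposited TPM per gene and library, a gene length, and log2 fold changes with an adjusted p-value for 3 unnamed comparisons. The authors' log2 values numbered 1 and 2 correlated at 0.943 and 0.909 with DKO minus control and re-expression minus DKO across 11403 genes, and number 3 was not used.

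TPM multiplied by length less 199 bases gave whole reads for 100% of values (tolerance 0.01 reads), used for depth and in voom. Genes with a mean of at least 1 TPM were tested on log2(TPM + 1) with limma 3.58.1 in R 4.3.3, a variance trend, 12 libraries, 9 residual degrees of freedom, two-sided, Benjamini-Hochberg over 17957 genes, threshold 0.05. Ratios used exact permutation tests (scipy 1.17.1). The fit was tested on simulated data. Within groups, pairs of livers differed by 4.08 to 13.5 chi-square per degree of freedom, so no pair agreed within sampling noise. The 9 genes and all lists were chosen with earlier results of these data known. All 9 genes are described, other lists by their counts and at most 4 genes each (smallest p), plus the 3 nearest genes of each of the 9. Outside that rule, Nampt, Usp2, Tef and Fkbp5 were named after their values were seen. A result among the activators is not reported here. Alternatives were pseudocount, filter, scaling, voom, 8 libraries, replicate block and left-out livers. DESeq2 was not run here. TPM values carry counting error, and intervals given are those of the spread between livers.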

Additional observations from a re-analysis of the deposited data

How the results depend on the processing

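Alternatives were a pseudocount of 0.1, no filter, a mean of at least 5 TPM, median-of-ratios scaling, voom on recovered reads, the 8 libraries of each comparison, the replicate number as a block, each liver left out, and control replicates 1 and 2 or 3 and 4 left out. Deviations of same-numbered livers correlated at -0.069 to 0.14 (median -0.022, 12 pairs), beside -0.13 to 0.088 (median 0.0074) in 36 pairs with different numbers. Same-numbered re-expression and control livers correlated at 0.14, 0.038, 0.070 and 0.088, and same-numbered pairs with a liver labelled DKO were all negative. The labels do not say what a replicate number shares. With that block 8 genes were called for re-expression minus DKO and 209 for re-expression minus control. Elsewhere the calls were 33 with voom, 20 with 8 libraries and 23 without control replicates 1 and 2 for re-expression minus DKO; 552 with voom and 162 with 8 libraries for re-expression minus control; and 559 with 8 libraries and 583 without control replicates 1 and 2 for DKO minus control. Leaving out 1 liver gave 5 to 15, 175 to 332 and 573 to 922 genes. Of the 9 genes, those called for re-expression minus control numbered 2 with voom, 0 with 8 libraries and 0 to 1 with 1 liver left out.

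Signs turned only in differences that were not called. With 1 liver left out the log2 ranges were -0.061 to 0.047 (Csnk1e) and -0.24 to 0.085 (Bhlhe41) for re-expression minus DKO, -0.13 to 0.11 (Per1) and -0.11 to 0.00020 (Cry2) for re-expression minus control, and -0.15 to 0.081 (Ciart) for DKO minus control. Those of ratios were -0.19 to 0.018 (Per1/Per2), -0.096 to 0.071 (Per3/Per2), -0.035 to 0.25 (Per3/Per1) and -0.0057 to 0.15 (Csnk1d/Csnk1e) for re-expression minus DKO, and for Csnk1d/Csnk1e -0.14 to 0.0031 for DKO minus control and -0.046 to 0.089 for re-expression minus control. Without control replicates 3 and 4, Per1 and Cry2 stood at 0.058 and 0.024 for re-expression minus control. Without control replicates 1 and 2, Bhlhe41 stood at 0.22 and Ciart at 0.10 for DKO minus control and Bhlhe41 at 0.14 for re-expression minus control. The cause was not tested. For ratios, leaving out a liver allows no exact p under 0.0571 and pairing none under 0.125. Depth limits Bhlhe41 and Csnk1e, with 21 to 101 and 45 to 69 reads.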
